A study of Mus musculus with 18 samples.

Results

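The genes described here drive DNA replication and mitosis: 42 genes fixed by name, from the MCM helicase and its nucleotide supply to the kinases, motors and centromere proteins of dividing cells. They were read from log2 array values in male mouse liver and in hepatocellular carcinoma (HCC) lesions, with 1 probe set per gene, that of highest mean over all arrays. Values were obtained for 41 of the 42, out of 18193 genes tested. Ccnb1, the cyclin B1 gene, was not analysed on the arrays and enters only the promoter counts below. Of the 41 genes, 14 act mainly around S phase and 27 in G2 and mitosis. Only 29 of the 41 exceeded log2 4 on at least 3 arrays, a level used here to mark dim signals, and all 41 were kept.

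There were 4 groups and 18 arrays, 1 array per sample. The normal livers (n = 3) came from wild-type (WT) C3H/HeOuJ mice killed at 15 weeks, with no carcinogen named in their labels. WT tumours (n = 7) were dissected HCC lesions of C3H/HeOuJ mice killed at 54 weeks, which had received the carcinogen DEN (diethylnitrosamine, 100 mg/kg) in week 12 and then the liver toxin CCl4 (carbon tetrachloride, 0.5 ml/kg) in 6 injections from week 13 to week 23. Tlr4-mutant tumours (n = 5) came from C3H/HeJ mice on the same DEN and CCl4 schedule. Their Tlr4 gene, which encodes the receptor for bacterial lipopolysaccharide, carries P712H, so that the Tlr4 change goes together with the substrain difference. Antibiotic tumours (n = 3) came from C3H/HeOuJ mice with normal Tlr4 that had the same DEN and CCl4 and, from week 10 to week 54, drinking water with vancomycin (500 mg/l) and with metronidazole, neomycin and ampicillin (each at 1 g/l). All 15 tumours therefore share carcinogen, toxin and age, and differ from the normal livers in all of these at once. The labels do not say that the samples of a group were separate animals, so the p-values below speak only of how far these samples spread, and part of that spread may be technical. Samples are named by group and by the number in their labels. In bulk tissue, fewer dividing cells and less of these RNAs per cell cannot be told apart.

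A cell that enters the cycle first makes cyclin E and E2F-driven genes, loads the MCM helicase on DNA and raises nucleotide supply and the PCNA clamp for S phase. In G2 the cyclin A2 and cyclin B partners of Cdk1 accumulate, and the mitotic kinases, the spindle motors and the centromere proteins follow, until the anaphase-promoting complex with Cdc20 and the ubiquitin-conjugating enzyme Ube2c ends mitosis. Most hepatocytes of an adult liver are quiescent and hold little RNA of these genes, which is why the proliferation antigen Mki67 is read as a label of dividing cells in liver tumours. Promoters of the mitotic genes are known for CCAAT boxes, bound by NF-Y, and for the cell cycle homology region (CHR), while many S phase promoters carry E2F sites.

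These elements were looked for as letters in the RefSeq promoter windows of mouse assembly GRCm38.p6, 300 bases long, from 250 bases before to 50 after the gene start, on both strands. A window was present for 35 of the 42 genes, with Ccnb1 counted among the G2 and mitosis genes. The CHR letters TTTGAA were found in 16 of 23 G2 and mitosis genes (69.6%) and in 1 of 12 S phase genes (8.33%), against 20.2% of all 27025 genes with a window. CCAAT was found in 21 of 23 (91.3%) and 8 of 12 (66.7%), against 41.1% of all. An E2F element, counted as TTTGGCGC, TTTCGCGC, TTTCCCGC or TTTGCCGC, was found in 1 of 23 (4.35%) and 4 of 12 (33.3%), against 2.6% of all. The 4 S phase genes with it were Mcm3, Mcm5, Mcm6 and Mcm7, subunits of the replicative helicase. CHR and CCAAT stood together in 17 of the 35 genes (48.6%), against 8.97% of all windows. None of these elements contains another, and a match describes the letters only. The windows of Mcm4, Ccne2, Ccna2, Foxm1, Aurkb, Kif20a and Tpx2 were not used here.

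Promoters are printed for 3 mitotic genes that were higher in WT tumours than in normal liver, 1 for each class of window: CHR with CCAAT, an E2F element, and none of them. Each sequence is the 250 bases before the gene start, 5′ to 3′ on the gene's strand, with the motif letters in capitals; CCAAT read on the other strand appears as ATTGG. Aurka encodes the spindle pole kinase Aurora A (chr2:172370571-172370820, minus strand), Cdk1 the mitotic cyclin-dependent kinase (chr10:69352913-69353162, minus strand) and Birc5 survivin, a subunit of the chromosomal passenger complex (chr11:117848987-117849236, plus strand).
Aurka: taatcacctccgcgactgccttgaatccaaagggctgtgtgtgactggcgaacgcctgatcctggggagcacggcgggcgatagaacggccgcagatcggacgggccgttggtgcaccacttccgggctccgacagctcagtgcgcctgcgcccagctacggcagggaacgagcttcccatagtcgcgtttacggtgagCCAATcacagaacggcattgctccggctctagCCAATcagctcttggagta
Cdk1: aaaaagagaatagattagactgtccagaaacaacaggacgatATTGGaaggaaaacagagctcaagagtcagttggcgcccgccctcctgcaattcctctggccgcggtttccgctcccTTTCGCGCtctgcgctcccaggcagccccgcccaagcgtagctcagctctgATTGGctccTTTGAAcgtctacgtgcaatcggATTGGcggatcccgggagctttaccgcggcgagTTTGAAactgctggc
Birc5: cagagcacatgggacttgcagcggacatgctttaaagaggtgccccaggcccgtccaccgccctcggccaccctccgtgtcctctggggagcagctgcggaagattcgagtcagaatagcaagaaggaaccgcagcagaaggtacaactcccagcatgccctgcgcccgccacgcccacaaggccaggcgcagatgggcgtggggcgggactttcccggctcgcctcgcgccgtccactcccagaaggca
The Aurka stretch has a pair of CCAAT boxes, and its TTTGAA begins 33 bases after the start, outside what is printed. The Cdk1 stretch holds all 3 kinds of element. The Birc5 stretch, and its 300-base window, has none of these letters.

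Some properties of the arrays move with the comparison of tumour and normal liver. The 3′ minus 5′ log2 difference of the Gapdh control was 1.52 ± 0.13 (SD, n = 3) in normal liver and 0.42 ± 0.15 (n = 7) in WT tumours (two-sided exact permutation p = 0.00833, adjusted p = 0.0333 over 8 such tests). It did not pass the test between tumour groups, where the smallest adjusted p was 0.125 (exact permutation test). The spike control mean was log2 5.36 to 5.74 on the normal arrays and 1.83 to 2.00 on the tumour arrays. Age, RNA quality, array handling and tumour state cannot be told apart in any tumour-to-normal difference. Centring the arrays on their median would move all tumour-to-normal differences by 0.10 to 0.15, and tumour-to-tumour differences by at most 0.05. All 10 hepatocyte markers were measured, with a summed linear signal of 146400 to 153700 in normal liver, 116900 to 150100 in WT tumours, 148800 to 158200 in Tlr4-mutant tumours and 138900 to 150100 in antibiotic tumours. Among the 18 leucocyte markers, the T and B cell genes Cd3e, Cd3g, Cd2, Cd79a, Cd79b and Ms4a1 stayed below log2 4 on every array. The summed leucocyte signal spanned 446 to 847 in normal liver, 532 to 2354 in WT tumours, 729 to 2601 in Tlr4-mutant tumours and 447 to 3202 in antibiotic tumours. Against normal liver, limma called higher 6 of these 18 markers (33.3%) in WT tumours (Ptprc, Cd68, S100a8, Coro1a, Laptm5 and Cd52). It called higher 6 (33.3%) in mutant and 2 (11.1%) in antibiotic tumours. The shares of all genes called higher were 9.81%, 5.67% and 3.69%. Of the 10 hepatocyte markers 2 were called higher in mutant tumours, and none was called in WT or antibiotic tumours. The summed signal of 6 cholangiocyte markers was 684 to 1017 in normal liver and higher without overlap in WT (1806 to 3720), mutant (1748 to 3168) and antibiotic tumours (1127 to 1992), with Cdh1 called higher in WT and mutant tumours and the defining keratins Krt19 and Krt7 dim on every array. That of 3 erythroid markers was 447 to 586 in normal liver and lower in WT (50.8 to 212), mutant (46.2 to 178) and antibiotic tumours (35.3 to 196), with Alas2 called lower in all 3. Hba-a1 and Slc4a1 were below log2 4 on every array, so that the erythroid sum is largely that of Alas2. Krt19, Krt7, Epcam, Sox9 and Cldn4 were below log2 4 on every normal array. The cholangiocyte sum in normal liver is therefore largely that of Cdh1. The part of these markers in the tumour-to-normal differences of the cell cycle genes was not tested. No marker of the 6 cell type lists passed the test between tumour groups. Tlr4 itself was below log2 4 on every array (1.99 to 3.82), and its probe set does not read the P712H change.

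**Figure D1:**
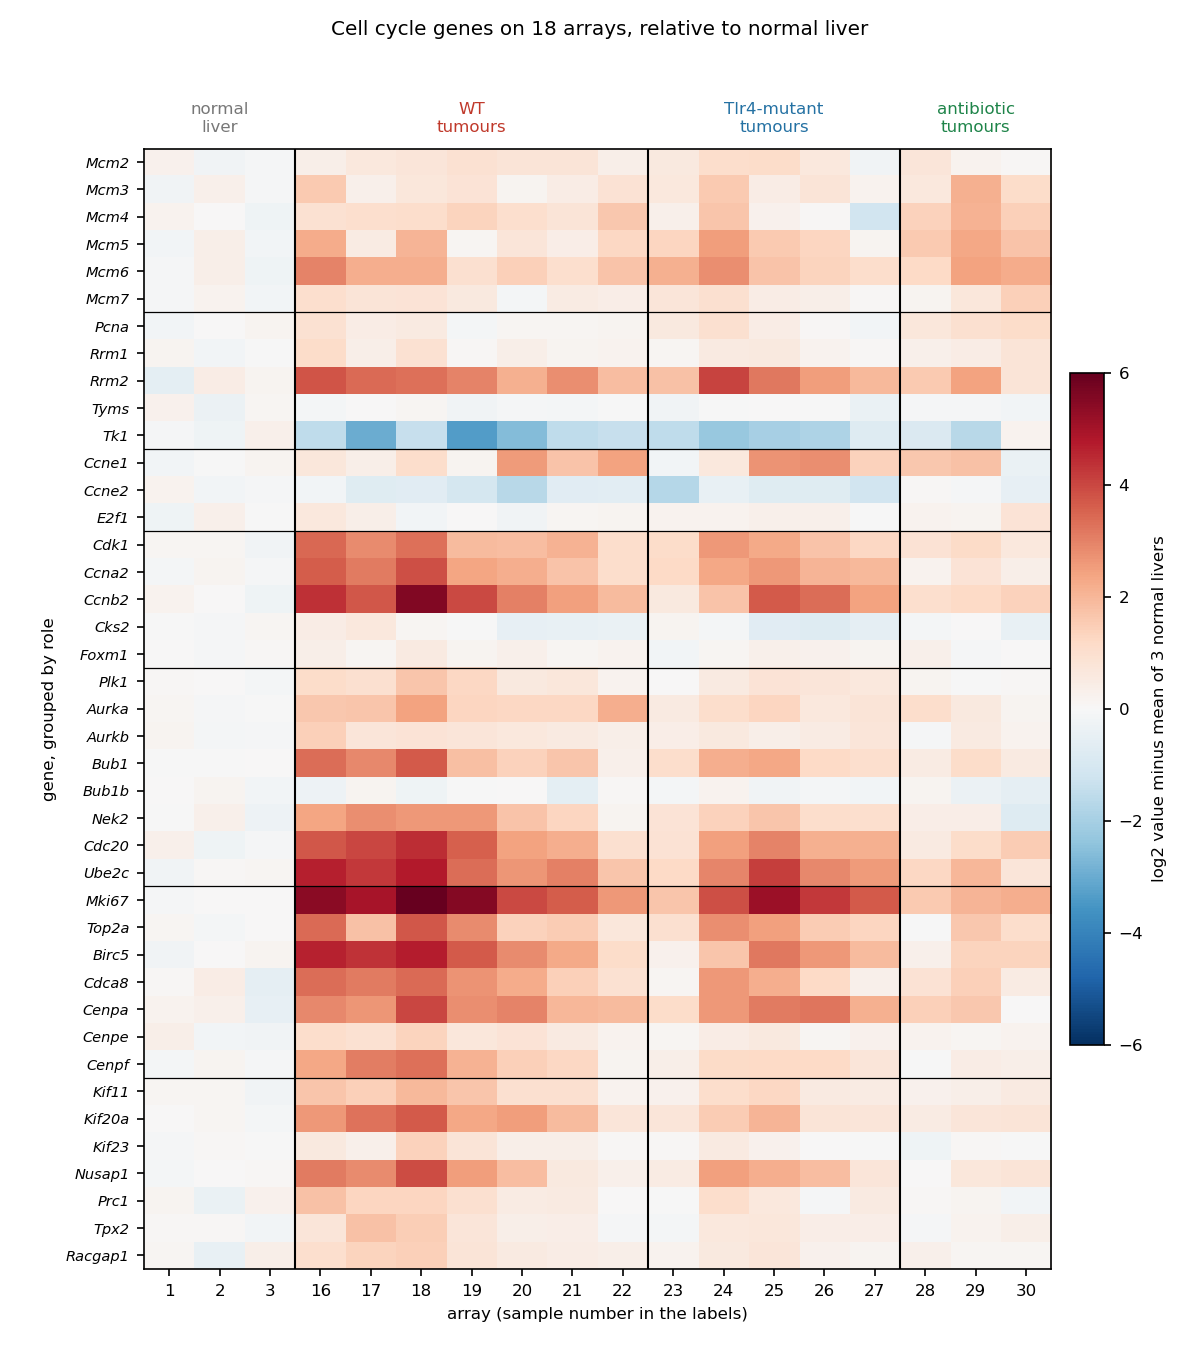
Each row is 1 of the 41 cell cycle genes, grouped by role from the MCM helicase (top) to spindle and cytokinesis (bottom), and each column 1 of the 18 arrays; colour is the log2 value minus the mean of the 3 normal livers. The mitotic rows are deepest red in WT tumours 16, 17 and 18 and palest in WT tumour 22, Tlr4-mutant tumour 23 and the 3 antibiotic tumours, while the MCM rows do not follow that order and Tk1 is blue in most tumours.

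WT tumours had more RNA of the mitotic genes than normal liver. Of the 41 genes 25 rose and 2 fell at an adjusted p under 0.05 (limma over all 18193 genes), against 9.81% of all genes that rose and 12.1% that fell. Of the 27 G2 and mitosis genes 22 rose and none fell (limma; 25 were higher and 0 lower at an unadjusted p under 0.05, against 15.0% and 19.2% of all genes), while of the 14 S phase genes 3 rose and 2 fell. The median log2 difference was 1.94 over the G2 and mitosis genes and 0.61 over the S phase genes, against -0.03 over all genes. Many mitotic genes were dim in normal liver: with dim groups set to log2 4, and genes dim in both groups set to 0, the medians were 0.17 and 0.38. Of the 25 genes that rose, 4 were dim in both groups. Where every normal array was dim, the fold is given as at least the value against log2 4. Of the 41 genes 23 were higher and 2 lower with no overlap between the groups, against 10.8% and 13.2% of all genes; 21 of the 25 that rose were among the former.

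Among the genes of chromosome structure, the passenger complex and the centromere, 7 of 7 rose. Mki67, the proliferation antigen that coats mitotic chromosomes, had log2 values of 2.67, 2.74 and 2.75 in normal liver. In the 7 WT tumours they ran from 5.30 over a median of 7.66 to 8.94. Every WT tumour was above every normal liver, by at least 10.0-fold in the mean (log2 difference 4.61 ± 0.70 SE, limma adjusted p = 0.000328). Cenpa, the histone variant of the centromere, was at 4.55, 4.67 and 3.86 in normal liver and between 6.28 and 8.35 in WT tumours (6.69-fold, adjusted p = 0.000978). Birc5 rose by at least 4.75-fold (adjusted p = 0.00304). Top2a, the topoisomerase that untangles sister chromatids, had the largest p of this role and still rose, by at least 1.87-fold (adjusted p = 0.0145); its lowest WT tumour, 22, was at log2 3.39. Cenpf, a kinetochore protein, had values of 2.40 to 5.52 in WT tumours and 2.11 to 2.40 in normal liver (log2 difference 1.94, adjusted p = 0.00923). Cenpe, the kinetochore motor, rose by 0.78 on the log2 scale with both groups dim (adjusted p = 0.00881), so no fold is given.

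Of the G2/M cyclins, Cdk1 and their regulators, 3 of 5 rose. Cdk1 was at log2 2.53, 2.55 and 2.21 in normal liver and between 3.49 and 5.87, with a median of 4.49, in WT tumours, with no overlap (at least 1.72-fold, log2 difference 2.36 ± 0.44 SE, adjusted p = 0.00147). Ccna2, cyclin A2, was at 2.91, 3.19 and 2.97 in normal liver and from 4.07 to 6.87 in WT tumours (at least 2.99-fold, adjusted p = 0.00153). Ccnb2, cyclin B2, was at least 4.84-fold higher (adjusted p = 0.00165). Cks2, a small Cdk-binding protein, was far above log2 4 in every group and did not follow its partners. It stood at log2 9.65 to 9.85 in normal liver and 9.21 to 10.34 in WT tumours (difference -0.03 ± 0.25 SE, adjusted p = 0.946). Foxm1, a transcription factor of G2/M genes, was dim in both groups.

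Of the mitotic kinases, checkpoint genes and regulators of the anaphase-promoting complex, 7 of 8 rose, 2 of them dim in both groups. Cdc20, its activator, was above log2 4 in normal liver too, with 4.67, 4.10 and 4.28 there and 5.33 to 8.76 in WT tumours (8.22-fold, adjusted p = 0.00205). Ube2c was at least 3.47-fold higher (adjusted p = 0.00118). Nek2, a centrosome kinase, was 3.82-fold higher (adjusted p = 0.00688), although WT tumour 22 at log2 4.19 lay within the normal range of 3.75 to 4.35. Aurka had the smallest p of this role, with log2 2.33, 2.15 and 2.18 in normal liver and 3.45 to 4.62 in WT tumours (log2 difference 1.65 ± 0.26 SE, adjusted p = 0.000383); the WT mean of 3.88 was itself below log2 4, so no fold is given. Bub1b, the checkpoint kinase BubR1, was dim in both groups and did not pass the test (difference -0.14, adjusted p = 0.598).

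Of the spindle and cytokinesis genes, 5 of 7 rose, 1 of them dim in both groups, and 2 or 3 rose when any 1 normal liver was left out. Kif20a, a kinesin of the cleavage furrow, was at log2 2.05, 2.11 and 1.88 in normal liver and between 2.72 and 5.70 in WT tumours, with no overlap (at least 1.36-fold, log2 difference 2.43 ± 0.46 SE, adjusted p = 0.00163). Tpx2, the activator of Aurora A on the spindle, had the largest p of the role (difference 0.76 ± 0.30 SE, adjusted p = 0.0833). Its WT values of 2.61 to 4.46 overlapped the normal values of 2.55 to 2.78.

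The S phase genes were less uniform. Within the MCM helicase 2 of 6 subunits rose, or 1 when any array of these groups but WT tumour 22 was left out and 4 without probe sets of shared sequence, and all 6 differences were positive. Mcm6 was at log2 4.70, 5.14 and 4.53 in normal liver and 5.76 to 7.75 in WT tumours, with no overlap (3.43-fold, adjusted p = 0.00734). Mcm4 was 2.15-fold higher (adjusted p = 0.0488), while Mcm3 missed the threshold (difference 0.70 ± 0.33 SE, adjusted p = 0.152). Rrm2, the small subunit of ribonucleotide reductase, was at 4.27, 5.29 and 5.01 in normal liver and 6.71 to 8.63 in WT tumours, 7.43-fold higher with no overlap (adjusted p = 0.000841). Pcna, the replication clamp, was bright everywhere, at 9.08 to 9.43 in normal liver and 9.14 to 10.15 in WT tumours (difference 0.31 ± 0.23 SE, adjusted p = 0.367). Tyms, thymidylate synthase, reached at most log2 2.53 on any array, and E2f1, the activating E2F factor, was dim on every array too.

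The 2 genes that fell belong to S phase and its entry. Tk1, the thymidine kinase of nucleotide salvage, was at log2 5.42, 5.20 and 5.80 in normal liver and from 2.12 over a median of 3.97 to 4.10 in WT tumours, with no overlap (4.30-fold lower, log2 difference -2.10 ± 0.48 SE, adjusted p = 0.00525). The WT mean of log2 3.37 was itself below log2 4, so that the size of this fold rests on dim values. Ccne2, cyclin E2, was at 4.65, 4.27 and 4.38 in normal liver and 2.76 to 4.27 in WT tumours (difference -0.80 ± 0.28 SE, adjusted p = 0.0466), a call lost when any array of these groups but WT tumour 16 was left out. Tk1, like Pcna, Ccnb2, Birc5, Cdc20 and Ube2c, was named after its values were seen.

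**Figure D2:**
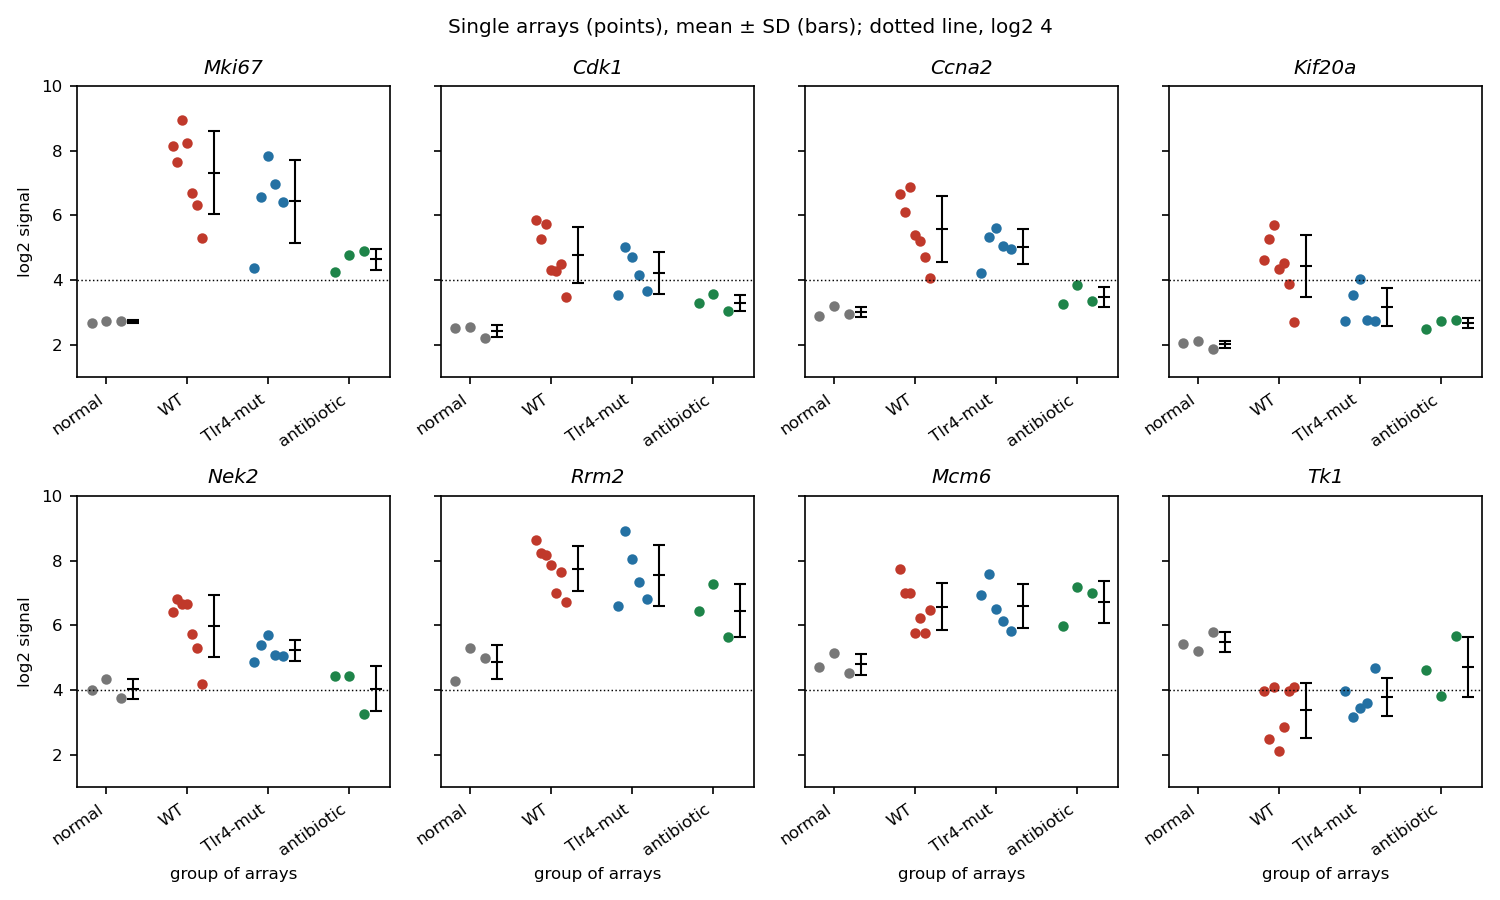
Log2 signal of 8 cell cycle genes in every sample (points) of the 4 groups, with the mean ± SD beside them; the dotted line marks log2 4. Mki67, Cdk1, Ccna2, Kif20a and Nek2 are highest among WT tumours and low in antibiotic tumours, Mcm6 lies at 5.76 to 7.75 in all 3 tumour groups, and Tk1 is highest in normal liver and antibiotic tumour 30.

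Tlr4-mutant tumours were also above normal liver, with fewer genes past the threshold in 5 arrays than in the 7 arrays of WT tumours. Differences were positive for 36 of the 41 genes in each of these comparisons. Of the 41 genes 10 rose and 2 fell (limma, adjusted p under 0.05), against 5.67% and 5.64% of all genes. The 10 were Mcm6, Rrm2, Cdk1, Ccna2, Ccnb2, Aurka, Cdc20, Ube2c, Mki67 and Cenpa, of which Aurka was below log2 4 on every array of both groups. Thus 8 of 27 G2 and mitosis genes and 2 of 14 S phase genes rose. The count of 8 became 5 without mutant tumour 24, 25, 26 or 27, and ran from 2 to 9 over all arrays left out singly. None of the 7 spindle and cytokinesis genes passed, although 3 of them had an unadjusted p under 0.05 by limma, all in the higher direction, against 12.8% of all genes higher and 13.5% lower. The groups did not overlap for 19 higher and 2 lower genes of the 41, against 12.6% and 12.4% of all genes. The median difference over the 41 genes was 0.73, or 0 with dim groups set to log2 4, against 0.00 over all genes. The count of 10 fell to 3, 5 and 4 when normal liver 1, 2 or 3 was left out, and a fit of only these 2 groups called 18.

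Mki67 was at log2 4.37, 6.57, 7.84, 6.97 and 6.42 in Tlr4-mutant tumours 23 to 27, at least 5.40-fold above normal liver (adjusted p = 0.0043). Tumour 23 was the lowest of the 5, and all 5 exceeded the normal livers. Cenpa was 5.40-fold higher (adjusted p = 0.00584), Rrm2 6.44-fold (adjusted p = 0.00379) and Cdc20 4.33-fold (adjusted p = 0.04). Ccna2 was at 4.22, 5.35, 5.62, 5.05 and 4.97 (at least 2.06-fold, adjusted p = 0.0167), again with tumour 23 lowest. Tk1 fell 3.23-fold (adjusted p = 0.0396) and Ccne2 at least 1.35-fold (adjusted p = 0.045); neither passed with any 1 normal liver left out. Ccne2 was dim in all 5 mutant tumours. The mutant mean of Tk1, log2 3.78, was also below log2 4, so that the size of its fold rests on dim values.

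In the antibiotic tumours no mitotic gene passed the test against normal liver in the fit of all 4 groups. A fit of only these 2 groups called 4 of the 27 G2 and mitosis genes higher. Of the 41 genes 3 rose and 0 fell by limma, against 3.69% and 3.58% of all genes; at an unadjusted p under 0.05, 8 were higher and 0 lower, against 11.3% and 11.7%. All 3 belong to replication: Mcm6, Mcm4 and Pcna. Mcm6 was at log2 5.98, 7.19 and 7.0 (3.82-fold, adjusted p = 0.0298) and Mcm4 at 6.46, 7.18 and 6.53 (3.12-fold, adjusted p = 0.0379). Pcna was at 9.93, 10.22 and 10.38 (1.89-fold, adjusted p = 0.0472). For each of these the 3 antibiotic tumours were above the 3 normal livers.

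Of the 27 G2 and mitosis genes, 17 were dim in both normal liver and antibiotic tumours, and the median difference over the 27 was 0.47, or 0 with dim groups set to log2 4. Mki67 was at log2 4.27, 4.78 and 4.89 in antibiotic tumours, above all normal livers but not past the threshold (at least 1.57-fold, difference 1.93 ± 0.82 SE, limma adjusted p = 0.172). That SE pools the spread within all 4 groups, and Mki67 ran from 5.30 to 8.94 in WT tumours. Nek2 was at 4.45, 4.43 and 3.26, on both sides of the normal livers (difference 0.01 ± 0.54 SE, adjusted p = 0.995). Cdk1 was at 3.29, 3.56 and 3.05, below log2 4 in all 3. The groups did not overlap for 19 of the 41 genes, all higher in antibiotic tumours, against 13.5% of all genes higher and 15.5% lower. No gene was called when any 1 of the 3 normal livers, or antibiotic tumour 29 or 30, was left out, and 5 were called without antibiotic tumour 28. With only these 2 groups in the fit, 8 of the 41 genes were called higher. The 3 comparisons with normal liver share the same 3 normal arrays.

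Between tumour groups no cell cycle gene passed the test. For Tlr4-mutant against WT tumours limma called 0 of 41 genes in either direction, against 0.0824% of all genes higher and 0.0824% lower; at an unadjusted p under 0.05, 0 were higher and 10 lower, against 7.67% and 4.68% of all genes. Differences were negative for 26 of 27 G2 and mitosis genes, with a median of -0.56 (-0.47 with dim groups set to log2 4), and for 7 of 14 S phase genes, with a median of 0.00. All genes had a median of 0.03, and 57.1% of them had a positive difference. None of the 41 genes separated the groups, as 0.704% of all genes did with mutant tumours higher and 0.440% with them lower.

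Aurka had the smallest adjusted p of this comparison. The mutant tumours were at log2 2.77, 3.30, 3.53, 2.84 and 3.0 and the WT tumours at 3.45 to 4.62 with a median of 3.83 (difference -0.79 ± 0.22 SE, adjusted p = 0.188); only mutant tumour 25 reached the WT range. Kif20a was at 2.76, 3.55, 4.03, 2.78 and 2.75 in mutant tumours (difference -1.27 ± 0.39 SE, adjusted p = 0.226), a range that held WT tumour 21 (3.89), while WT tumour 22 (2.72) lay below all 5 mutant tumours. Cenpf (difference -1.01, adjusted p = 0.331) and Cenpe (difference -0.48, adjusted p = 0.271) were likewise lower in the mean without passing. Mki67 differed by -0.90 ± 0.59 SE (adjusted p = 0.564), and the groups overlapped widely. Mcm4 had the only S phase p under 0.05 before adjustment (difference -0.89 ± 0.32 SE, adjusted p = 0.292). Its other probe set, without shared-sequence marks, gave 0.0066.

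Antibiotic against WT tumours gave differences of both signs, none past the threshold. Limma called 0 of 41 genes, against 0.00550% of all genes higher and 0.0275% lower; at an unadjusted p under 0.05, 3 were higher and 24 lower, against 6.88% and 5.26% of all genes. All 27 G2 and mitosis genes had a negative difference, with a median of -1.44, or -0.17 where dim groups were set to log2 4. Of the 14 S phase genes 10 had a positive difference, with a median of 0.23 (0.18 with dim groups set to log2 4), against 55.4% positive and a median of 0.03 over all genes. Whether the S phase and mitotic differences differ from each other was not tested. For 7 genes each antibiotic tumour was below each WT tumour (against 1.41% of all genes), and for none above (against 1.75%). These were Mki67, Ccna2, Ccnb2, Aurka, Cenpa, Plk1 and Racgap1, the last being the centralspindlin subunit that organises cytokinesis and Plk1 the polo-like kinase of mitotic entry. Plk1 and Racgap1 were below log2 4 on all 18 arrays, with antibiotic tumours reaching 2.21 and 2.48 and WT tumours starting at 2.24 and 2.51, so that their separation lies wholly among dim values. The gap of Aurka, from 3.27 in antibiotic to 3.45 in WT tumours, was also below log2 4, a level that only 2 of the 18 arrays exceeded for this gene.

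Mki67 stood at log2 4.27, 4.78 and 4.89 in antibiotic tumours and at 5.30 or more in all 7 WT tumours, 6.42-fold lower in the mean (difference -2.68 ± 0.70 SE, adjusted p = 0.186). Ccna2 was at 3.26, 3.85 and 3.36 against 4.07 or more (difference -2.09 ± 0.48 SE, at least 2.99-fold, adjusted p = 0.182). Both gaps to the lowest WT tumour, number 22, were small. Ccnb2 was at 3.69, 3.90 and 4.07 against 4.60 to 8.25 (5.24-fold, adjusted p = 0.217). Kif20a was at 2.50, 2.75 and 2.77, with WT tumour 22 at 2.72 and the other 6 WT tumours at 3.89 or more (difference -1.77 ± 0.46 SE, adjusted p = 0.185). Nek2 overlapped in the same way through WT tumour 22 (3.79-fold, adjusted p = 0.182). Left without that array, 2 genes passed: Nek2 (difference -2.22, adjusted p = 0.0366) and Kif20a (difference -2.06, adjusted p = 0.0439).

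Most replication genes had differences of the other sign. Of the 6 MCM subunits 5 had a positive difference between antibiotic and WT tumours, with a median of 0.37. Mcm3 was at log2 3.64, 5.11 and 4.10 in antibiotic tumours and 3.17 to 4.58 in WT tumours (difference 0.59 ± 0.33 SE, adjusted p = 0.498). Pcna (difference 0.61 ± 0.23 SE, adjusted p = 0.301) and Tk1 (difference 1.34 ± 0.48 SE, adjusted p = 0.292) were higher in the mean, and all overlapped. Rrm2 was the S phase gene with values like the mitotic ones, at 6.44, 7.26 and 5.63 against 6.71 to 8.63 (difference -1.30 ± 0.50 SE, adjusted p = 0.312).

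**Figure D3:**
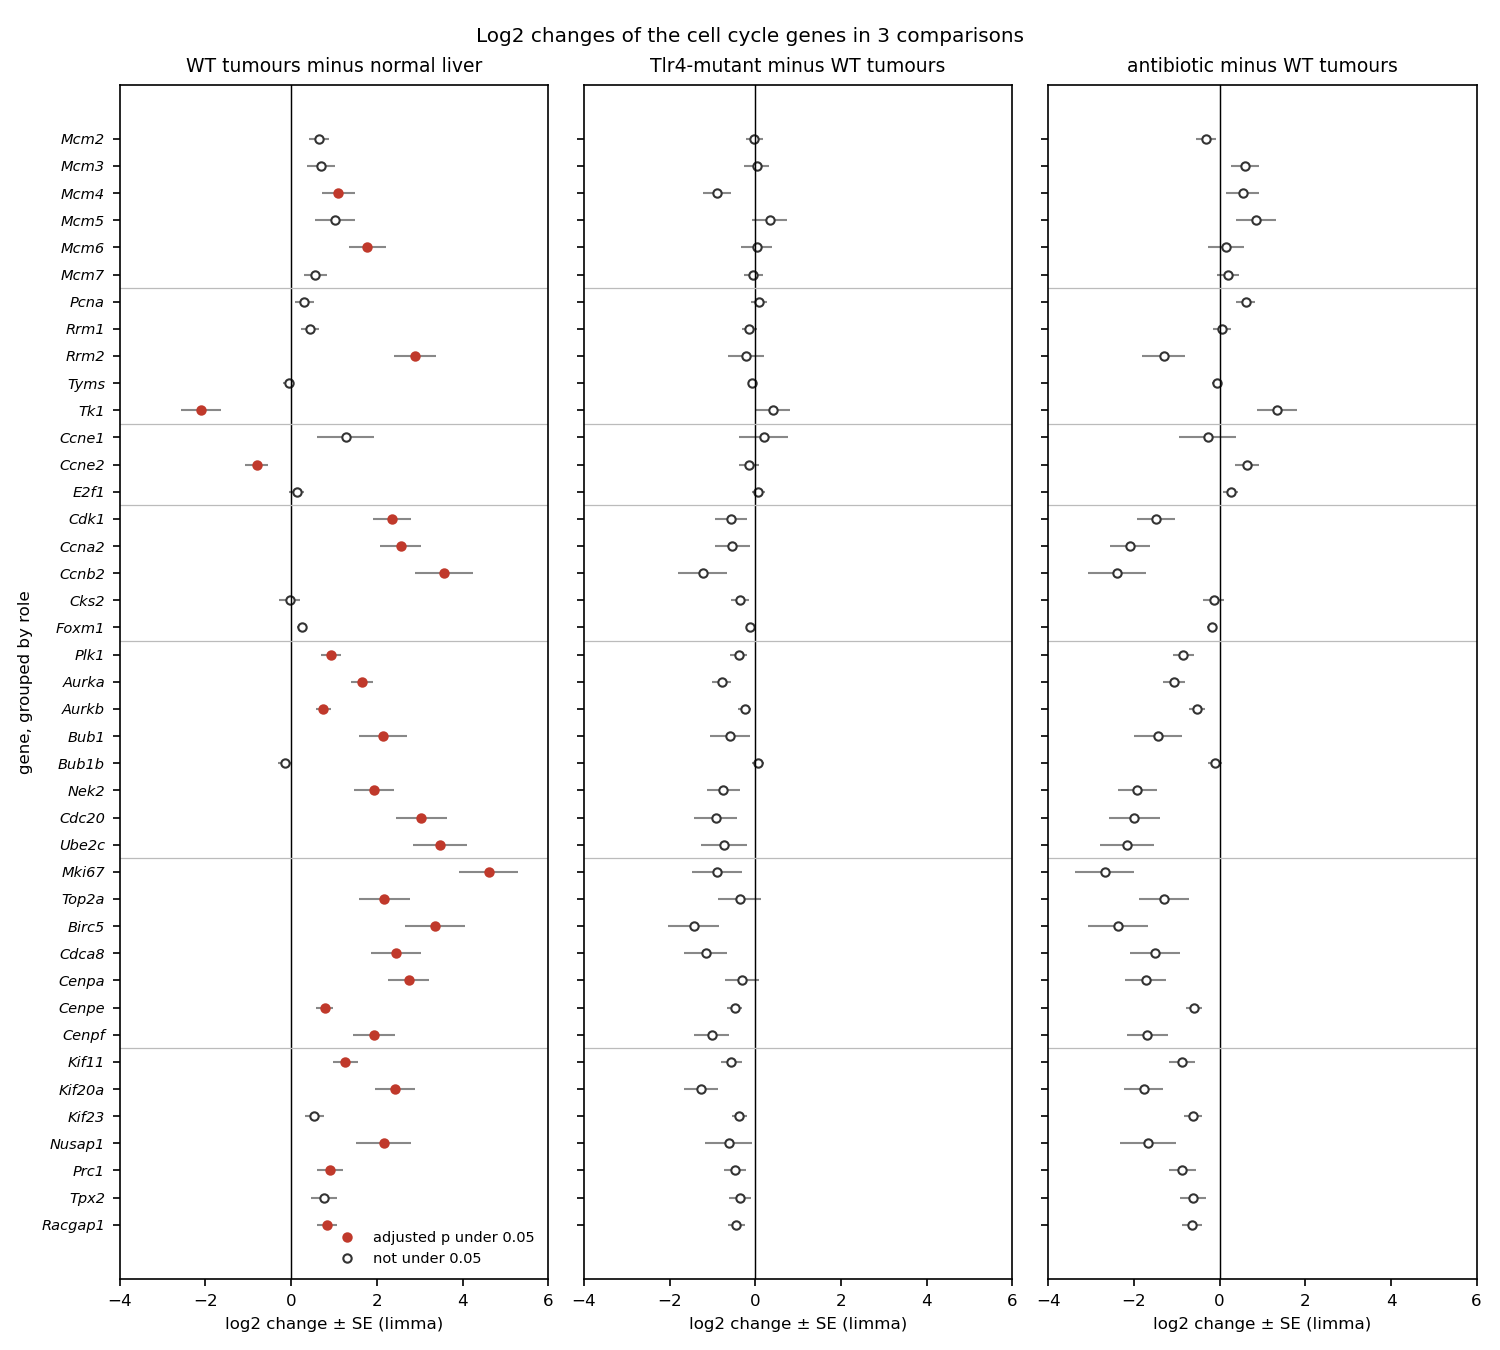
Log2 differences ± SE (limma) of the 41 cell cycle genes, grouped by role, for WT tumours minus normal liver (left), Tlr4-mutant minus WT tumours (middle) and antibiotic minus WT tumours (right); filled points have an adjusted p under 0.05. The left panel has 27 filled points, 25 to the right of 0, while the other panels have none; in the right panel all points from Cdk1 downwards lie left of 0.

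Tlr4-mutant and antibiotic tumours did not differ past the threshold either. Limma called 0 of 41 genes, against 0.0605% of all genes higher and 0.0495% lower in mutant tumours; at an unadjusted p under 0.05, 5 were higher and 3 lower, against 4.56% and 3.95% of all genes. Ccna2 (log2 difference 1.55 ± 0.50 SE, adjusted p = 0.391) and Nek2 (difference 1.18 ± 0.48 SE, adjusted p = 0.507) were higher in each mutant tumour than in each antibiotic tumour, against 2.76% of all genes; no gene was lower in that way, against 1.84%. Cenpa overlapped (difference 1.42, adjusted p = 0.455), with mutant tumour 23 at log2 5.46 below antibiotic tumours 28 and 29. Mcm4 had the smallest p, in the other direction (difference -1.42 ± 0.41 SE, adjusted p = 0.319), and it passed when mutant tumour 24 was left out (difference -1.78, adjusted p = 0.0364). Ccne2 was lower in mutant tumours in the mean (difference -0.78 ± 0.29 SE, adjusted p = 0.465). The comparisons with WT tumours share the 7 WT arrays, and this last one shares the mutant and antibiotic arrays with them.

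Other cell cycle genes were taken from 4 lists of the pathway. Of 40 further mitosis genes 29 rose and 1 fell in WT tumours against normal liver, where 9.81% of all genes rose and 12.1% fell. Their median difference was 1.16, or 0.0081 with dim groups set to log2 4, since 15 of the 40 were dim in both groups. Stmn1, the microtubule-destabilising protein stathmin, rose 10.1-fold (adjusted p = 0.000244) and Ect2, a gene needed for cytokinesis, at least 4.08-fold (adjusted p = 0.00108). Spc24, a kinetochore subunit, was the exception (difference -1.72, adjusted p = 0.025), a call lost when any 1 normal liver was left out. The count of 29 became 19 without normal liver 3. Of 28 further replication genes 4 rose (14.3%) and 3 fell (10.7%), shares near those of all genes, with a median of 0.12. Rfc3, a clamp loader subunit, rose 2.83-fold (adjusted p = 0.00487), whereas Fen1, the flap endonuclease of lagging strands, fell 3.18-fold (adjusted p = 0.000275) by its brightest probe set, but rose without probe sets of shared sequence (difference 0.84, adjusted p = 0.0336), so that its direction is not settled. Mcm10, a replication initiation factor, fell 13.8-fold (adjusted p = 0.0143), and missed the threshold without normal liver 2 (adjusted p = 0.0599).

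Of 17 G1 cyclins, Cdks and Cdk inhibitors 7 rose (41.2%) and none fell in WT tumours by limma, against 9.81% and 12.1% of all genes. At an unadjusted p under 0.05, 8 were higher and 2 lower, against 15.0% and 19.2% of all genes. The inhibitors Cdkn2b (at least 25.4-fold, adjusted p = 3.82e-05) and Cdkn1a (at least 18.5-fold, adjusted p = 0.000108) had the largest changes. Of 16 pocket protein, E2F and MYB genes 2 rose (12.5%) and 3 fell (18.8%), against 9.81% and 12.1% of all genes. Those that rose were E2f3 (2.13-fold, limma adjusted p = 0.00625) and Rbl1 (at least 2.12-fold, adjusted p = 0.00159). Among the 3 that fell were Tfdp2 (difference -1.60, adjusted p = 0.00182) and E2f8 (difference -1.33, adjusted p = 0.0418). The call of E2f8 was lost without any 1 normal liver or any 1 of WT tumours 17 to 21. In the Tlr4-mutant tumours 7 of the 40 mitosis genes (17.5%) rose against normal liver, against 5.67% of all genes, and 1 to 4 did without normal liver 1, 2 or 3 or mutant tumour 24, 25 or 26. In the antibiotic tumours 1 of the 40 (2.5%) rose, below the 3.69% of all genes. Of the 28 replication genes 5 rose (17.9%) and 1 fell (3.57%) there, against 3.69% and 3.58% of all genes. Only 1 to 3 of them rose when any 1 normal liver, or antibiotic tumour 29 or 30, was left out. Between tumour groups no gene of these 4 lists passed the test. In antibiotic against WT tumours 37 of the 40 further mitosis genes had a negative difference (median -0.68, or 0 with dim groups set to log2 4) and 21 of the 28 replication genes (75%) a positive one (median 0.32), against 55.4% positive among all genes.

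Single tumours of 1 group differed widely. By the mean log2 value over the 41 genes, WT tumours 18, 16 and 17 took ranks 1, 2 and 3 of 15, at 5.64, 5.46 and 5.17. Mutant tumour 25 (4.92), WT tumour 19 (4.90) and mutant tumour 24 (4.87) came next. WT tumour 22 ranked 12 with 4.20, between mutant tumour 27 (4.22) and antibiotic tumour 30 (4.07), and mutant tumour 23 was last with 3.98. The 3 normal livers lay at 3.48 to 3.56, below all tumours. WT tumour 18 had the highest value of all tumours in 21 of the 41 genes, 20 of them G2 and mitosis genes.

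The order over the S phase genes differed in part. Over the 27 G2 and mitosis genes the group means were 2.97 ± 0.06 (SD, n = 3) in normal liver, 4.80 ± 0.73 (n = 7) in WT tumours, 4.18 ± 0.48 (n = 5) in mutant tumours and 3.50 ± 0.17 (n = 3) in antibiotic tumours. WT tumours 18, 16, 17 and 19 took ranks 1 to 4 there, and antibiotic tumours 29, 30 and 28 ranked 11, 14 and 15. Over the 14 S phase genes antibiotic tumours had the highest group mean, 5.40 ± 0.17, against 5.17 ± 0.28 in WT and 5.14 ± 0.36 in mutant tumours, ranges that overlap. Their ranks were 3, 5 and 7. WT tumour 16 ranked 1, mutant tumour 24 ranked 2 and WT tumour 18 ranked 4, so that WT tumours 16 and 18 were high over both sets of genes, while WT tumours 17 and 19 ranked 10 and 14. WT tumours 17 and 19 had the lowest summed signals of the 10 endothelial markers on the 18 arrays, 126 and 424. Vwf and Pecam1 were below log2 4 in every WT tumour. The hepatocyte sums of tumours 17 and 19, 124700 and 116900, were also the lowest on the 18 arrays. Their leucocyte sums, 532 and 884, were the lowest among WT tumours. The stellate cell and fibroblast sum was lowest of all in tumour 17 (540) but 1817 in tumour 19. Their cholangiocyte and erythroid sums lay within the range of the other WT tumours. The part of these markers in the order was not tested. Of the WT tumours, number 22 had a G2 and mitosis mean of 3.67, next to antibiotic tumour 29 at 3.69 and mutant tumour 23 at 3.49.

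**Figure D4:**
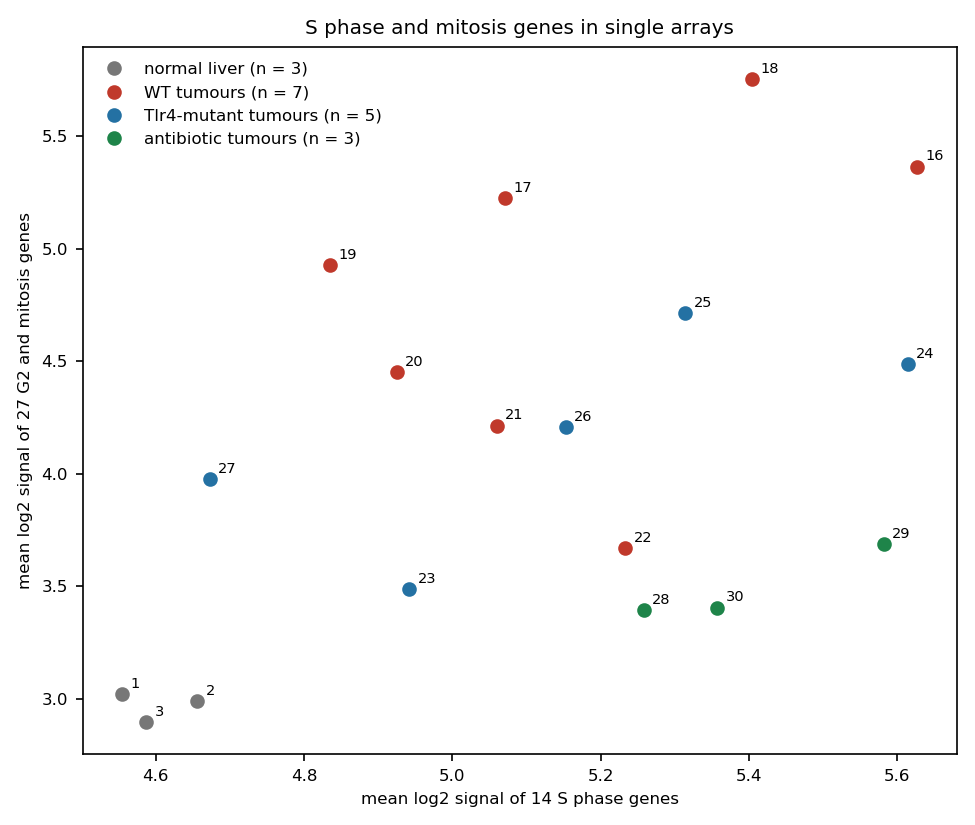
Each point is 1 of 18 arrays, numbered as in the labels: mean log2 signal of the 14 S phase genes (horizontal axis) against that of the 27 G2 and mitosis genes (vertical axis). Antibiotic tumours 28, 29 and 30 and WT tumour 22 lie at the lower right, with S phase means of 5.23 or more and mitosis means of 3.69 or less. WT tumour 19 lies at the upper left, with an S phase mean of 4.84, and WT tumour 17 at the upper middle, with 5.07. WT tumours 16 and 18 lie at the upper right, and the 3 normal livers at the lower left corner.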

How the data were processed

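Expression was measured on 18 mouse 3′ oligonucleotide arrays. The deposited values are log2 signals made by the authors with GCRMA (background correction and probe set summary), per the submitters' processing notes; its version is not given in the sources used here. GCRMA shrinks dim probe sets, so a level below log2 4 was treated as a bound. Of 45101 probe sets, 34945 have 1 gene symbol in the platform annotation and were used; those with several symbols (932), with none (9160) and the 64 control probe sets were not. The probe set of highest mean over all arrays stood for each gene, with no filter, leaving 18193 genes.

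Group differences come from limma 3.58.1 (R 4.3.3), with 1 mean for each of the 4 groups and all 18 arrays in the model (moderated variances, two-sided, Benjamini-Hochberg adjustment over 18193 genes, adjusted p under 0.05). A group was dim when all its arrays were below log2 4; folds against it use log2 4, and none is given when both groups are dim or the brighter mean is below log2 4. Levels of different probe sets are not compared as amounts. Arrays have no read depth, and their number limits the precision. Exact permutation tests compared the groups in the 3′ minus 5′ difference of control probe sets. The procedure was tested on simulated data. Summed marker signals are linear. Promoter windows were read from a RefSeq table with python 3.11.15.

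The genes described and all lists were chosen with earlier results of these data known. The rule named Mki67, Top2a and Cdk1, the gene of smallest and of largest p of each role in WT tumours against normal liver, and the 5 of smallest p in each tumour-to-tumour comparison. For the other lists it named the 2 largest changes each way past the threshold, and the promoters are the first gene in the alphabet of each motif class.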

Additional observations from a re-analysis of the deposited data

Results flagged for a closer look

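In 54 checks of single arrays within the groups of 7 and 5 tumours, 2 values stood far from the rest of their group, where chance gives about 1 in 20. E2f1 was lowest in Tlr4-mutant tumour 27, at log2 2.74, with the nearest mutant tumour at 2.98. Bub1b was highest in Tlr4-mutant tumour 24, at log2 3.15, with the nearest at 2.82. Both genes were below log2 4 on every array, and neither passed the test in any comparison.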

How the results depend on the processing

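The counts of genes past the threshold (over the 41 genes, their roles and phases and the 4 other lists) and the differences of all named genes were recomputed with a filter (log2 4 on at least 3 arrays), averaged probe sets per gene, no probe sets of shared sequence, centred arrays, quantile normalization, trended and robust variances, only the compared groups, without WT tumours 17 and 19, and without each array in turn. No paired analysis was possible because the groups share no sample numbers. In WT tumours against normal liver the number of genes that rose (25) lay between 20 and 28 under the first 8, and between 19 and 27 without 1 array; the number that fell (2) became 1 with only the compared groups and 1 without WT tumours 17 and 19, and 1 to 2 without 1 array. In Tlr4-mutant tumours against normal liver the 10 higher genes became 18 with only the compared groups and 3 to 11 without 1 array; the 2 lower became 1 without WT tumours 17 and 19 and 0 to 1 without 1 array. In antibiotic tumours against normal liver the 3 higher became 5 with the filter, 5 with the mean of probe sets, 8 with only the compared groups and 0 to 5 without 1 array. Between tumours the count of 0 stayed in all 8 settings; leaving out 1 array gave 0 to 2 lower in antibiotic against WT tumours and 0 to 1 lower in mutant against antibiotic tumours. The causes were not tested, though a left-out normal liver leaves only 2.

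Of the named genes, calls that were lost in at least 1 setting were those of Ccne2, Mcm4, Cenpe and Top2a in WT tumours, of Aurka, Ccna2, Cdk1, Ccne2, Mcm6, Tk1, Ccnb2, Cdc20 and Ube2c in mutant tumours and of Mcm4, Mcm6 and Pcna in antibiotic tumours, each against normal liver. Of the other lists, calls of Mcm10, Fen1, Spc24 and E2f8 in WT tumours were lost. Only 1 of these calls turned its sign: Fen1 in WT tumours against normal liver, -1.67, became 0.84 without shared-sequence probe sets. The other 58 turned values belonged to differences that had not passed; Mcm4 between mutant and WT tumours (-0.89) and Mcm3 in mutant tumours against normal liver (0.73) were the largest of them. Against normal liver, the mean of probe sets turned E2f1 to -0.096 and Bub1b to 0.066 in WT tumours, and E2f1 to -0.076 and Bub1b to 0.016 in mutant tumours. Quantile normalization turned Cks2 to 0.0082 in WT tumours. Removal of shared-sequence probe sets turned Mcm3 to -0.015 in mutant tumours and Nek2 to -0.21 in antibiotic tumours, where centring gave Nek2 -0.14 and quantile normalization -0.17. Between mutant and WT tumours, the mean of probe sets turned Mcm6 to -0.069, Bub1b to -0.050 and Cenpa to 0.018; removal of shared-sequence probe sets turned Mcm3 to -0.10 and Mcm4 to 0.0066; and without WT tumours 17 and 19 Mcm6 was -0.045, Mcm3 -0.024 and Tk1 -0.018. Between mutant and antibiotic tumours Tyms became 0.084 with the mean of probe sets and 0.041 on centred arrays.

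Without 1 array, differences in WT tumours against normal liver ran from -0.24 to 0.073 for Tyms and -0.14 to 0.045 for Cks2. In mutant tumours against normal liver they ran from -0.31 to 0.0076 for Tyms, -0.15 to 0.012 for Bub1b and -0.14 to 0.57 for Mcm4, and in antibiotic tumours from -0.30 to 0.020 for Tyms and -0.19 to 0.41 for Nek2. Between mutant and WT tumours the ranges were -0.22 to 0.23 for Mcm6, -0.18 to 0.18 for Mcm3, -0.55 to 0.029 for Rrm2, -0.10 to 0.0011 for Tyms, -0.29 to 0.045 for Ccne2, -0.0039 to 0.12 for Bub1b, -0.50 to 0.026 for Cenpa and -0.066 to 0.22 for Pcna. Between antibiotic and WT tumours they were -0.080 to 0.53 for Mcm6 and -0.30 to 0.041 for Bub1b. Between mutant and antibiotic tumours they were -0.50 to 0.11 for Mcm6, -0.047 to 0.054 for Tyms and -0.30 to 0.020 for E2f1. The non-overlap counts, promoter matches and RNA quality tests were not recomputed. In antibiotic tumours against normal liver the G2 and mitosis count of 0 became 4 with only the compared groups. By the mean over the genes, WT tumours 18, 16 and 17 kept ranks 1, 2 and 3 of 15 under the 5 other summaries and scalings.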
